A study of Mus musculus with 9 samples.

Results

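The Id genes, follistatin and members of bone morphogenetic protein (BMP) signalling were followed across 9 arrays of N1E-115, a mouse neuroblastoma line. The set held 10 genes, Id1, Id2, Id3, Id4, Fst, Bmp7, Bmp4, Smad6, Smad7 and Bambi. Every probe set (the group of oligonucleotides on the array that reads one transcript) whose platform annotation gave exactly 1 gene symbol, and that symbol among the 10, was taken. This gave 16 of the 22626 probe sets that were not controls, or 10 of the 12393 genes that such probe sets name. The genes were chosen by their measured difference between Tcof1-overexpressing and wildtype cells, which was known when they were proposed, so their values in that comparison are a description and carry no test.

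The 9 arrays form 3 groups of 3, lettered A, B and C: N1E-115 cells in which mouse Tcof1 was overexpressed, N1E-115 cells with wildtype Tcof1, and N1E-115 cells in which Tcof1 was knocked down. Tcof1 encodes treacle, a nucleolar protein of ribosomal RNA synthesis. The sources used here do not say how the gene was raised or lowered, whether the cells were 1 clone or a pool, or whether the letters stand for separate cultures. All p-values therefore rest on array-to-array spread that may be technical. The values are intensities, a linear measure of the brightness of a probe set. The differences are on the scale of log2(intensity + 16), where the changes of dim probe sets come out too small. Folds are read from these differences, so they compare intensity + 16 and run below ratios of the intensities themselves.

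BMP ligands are secreted proteins of the transforming growth factor beta family. They bind type I and type II receptors, which phosphorylate Smad1, Smad5 and Smad9, and these enter the nucleus with Smad4. The Id genes are among the most direct targets of this pathway: Id proteins have a helix-loop-helix but no DNA-binding region, and hold basic helix-loop-helix (bHLH) factors away from DNA. In the sympathetic nervous system BMPs from the dorsal aorta start the noradrenergic programme of neural crest cells, and in neuroblastoma Id proteins are known for keeping cells undifferentiated. Smad6, Smad7 and Bambi are inhibitors that the pathway itself induces.

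The sequences before the start sites of 3 Id genes, Id2, Id3 and Id4, are shown. Id2 and Id3 were brighter in overexpressing than in wildtype cells, and Id4 was not. Id4 was dim and, without a detection call, cannot be told from background, so a split of the family is not shown. The printed sequences are the 250 bases upstream of the start in RefSeq (GRCm38.p6), 5′ to 3′ on the gene's strand. The capitals mark GGCGCC, the core of the GC-rich Smad1 and Smad5 element, and CAGAC or its reverse complement, the Smad box.
Id2, chr12:25096093-25096342, minus strand: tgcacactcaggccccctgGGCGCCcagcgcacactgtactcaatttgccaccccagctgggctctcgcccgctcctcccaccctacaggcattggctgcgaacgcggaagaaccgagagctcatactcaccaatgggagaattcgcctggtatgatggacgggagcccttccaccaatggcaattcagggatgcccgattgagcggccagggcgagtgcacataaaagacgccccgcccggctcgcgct
Id3, chr4:136143572-136143821, plus strand: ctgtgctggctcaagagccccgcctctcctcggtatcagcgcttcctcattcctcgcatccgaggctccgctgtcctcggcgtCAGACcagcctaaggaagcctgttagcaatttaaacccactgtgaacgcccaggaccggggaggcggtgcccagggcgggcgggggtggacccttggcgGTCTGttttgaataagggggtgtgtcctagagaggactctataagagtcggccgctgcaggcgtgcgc
Id4, chr13:48260866-48261115, plus strand: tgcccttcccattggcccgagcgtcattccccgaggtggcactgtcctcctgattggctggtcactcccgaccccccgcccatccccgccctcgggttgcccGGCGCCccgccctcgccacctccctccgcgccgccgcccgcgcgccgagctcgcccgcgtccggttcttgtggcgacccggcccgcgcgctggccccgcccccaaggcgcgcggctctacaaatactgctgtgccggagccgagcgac
GGCGCC, which is its own reverse complement, lay 231 bases before the start in Id2 and 148 bases before it in Id4, and CAGAC or GTCTG lay 167 and 68 bases before it in Id3. Of 32851 promoter windows of this length, which leave out those of a whole chromosome, 9.59% held GGCGCC and 42.2% held CAGAC on either strand. The palindrome GTCTAGAC, found in 0.167% of windows, was in none of the 3. The E-box CANNTG, which bHLH dimers bind, was found once in Id2, 196 bases before the start, and in 66.2% of windows, and Id4 held 2 matches to the Egr motif GCGNGGGCG, found in 4.7%. These are matches of letters in a short window, and binding was not measured. GC content was 62.8% in Id2 and Id3 and 75.6% in Id4, against a median of 52.4% over the windows searched. The windows of Bmp4 and Smad6 were searched with the same motifs and are not printed, since neither gene is one the results turn on. Id1, Fst, Bmp7, Smad7 and Bambi had no entry that was used.

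Id1, Id2 and Id3 were brighter in the overexpressing cells, and Id4 was not. Id1, which acts in stem and progenitor cells and in vessels, read 3168, 3536 and 3075 on overexpressed arrays A, B and C, 1628, 1438 and 1629 on wildtype arrays, and 1809, 1651 and 1806 on knockdown arrays. All overexpressed values lay above all others, and the knockdown values lay just above the wildtype ones, without overlap. The difference between overexpressed and wildtype cells was 1.05 ± 0.09 (SE) on the log2 scale, a 2.07-fold difference, and that between knockdown and wildtype cells was 0.16 ± 0.09 (95% interval -0.03 to 0.36, adjusted p = 0.54 by limma).

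Id3, the paralogue of Id1 that often overlaps with it in the embryo, came next. Its intensities were 1125, 965 and 755 on overexpressed arrays A, B and C, 307, 287 and 288 on wildtype arrays, and 426, 418 and 580 on knockdown arrays. The groups formed 3 separate ranges, with wildtype lowest, knockdown in the middle and overexpressed highest. Overexpressed cells differed from wildtype by 1.62 ± 0.17, which is 3.07-fold. Knockdown cells differed from wildtype by 0.65 ± 0.17, with a 95% interval of 0.28 to 1.01 before adjustment, but this did not pass (adjusted p = 0.214).

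Id2, which also binds the retinoblastoma protein, was read by 3 probe sets that did not behave alike. On 1422537_a_at, overexpressed arrays read 610, 612 and 737, wildtype arrays 116, 110.0 and 176, and knockdown arrays 124, 40.4 and 151. On 1435176_a_at the values were 668, 556 and 383, then 270.1, 169 and 147, then 169.7, 95 and 154. Both showed overexpressed cells above the other groups and knockdown cells overlapping wildtype, with overexpressed over wildtype differences of 2.18 ± 0.35 and 1.39 ± 0.28. The third, 1453596_at, was dim, with means of 78.6 ± 10.5 (SD, n = 3) in overexpressed, 41.2 ± 5.58 in wildtype and 64.6 ± 10.1 in knockdown cells. There the knockdown arrays lay above wildtype and overlapped the overexpressed ones. Knockdown over wildtype was -0.42 ± 0.35, -0.43 ± 0.28 and 0.49 ± 0.23 on the 3 probe sets, and none passed (adjusted p = 0.708, 0.618 and 0.479). The sign on 1422537_a_at rested on knockdown array B, without which the difference was 0.06.

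Id4, the family member that is active in neural stem cells and glial precursors, was read by 3 probe sets made from 1 expressed sequence, so they are not independent. All 3 were dimmer than the median probe set of the array (175). Group means ran from 43.4 to 128 in overexpressed, 54.8 to 140.0 in wildtype and 36.9 to 119 in knockdown cells. On 1423260_at the knockdown arrays read 24.5, 208 and 124, a spread wider than any difference between groups. Overexpressed over wildtype was -0.19 ± 0.53, -0.16 ± 0.25 and -0.25 ± 0.29 on 1423260_at, 1423259_at and 1450928_at. On 1423260_at the sign turned to 0.07 without overexpressed array C. On 1450928_at the overexpressed arrays lay below wildtype without overlap. The widest 95% interval, on 1423260_at, ran from -1.35 to 0.97, and knockdown over wildtype differed by -0.53 ± 0.53, -0.27 ± 0.25 and -0.49 ± 0.29 in the same order (adjusted p = 0.762, 0.744 and 0.578). On 1423260_at that difference was 0.18 without knockdown array A and -1.05 without knockdown array B, and on 1450928_at it was -0.16 and -0.69.

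**Figure D1:**
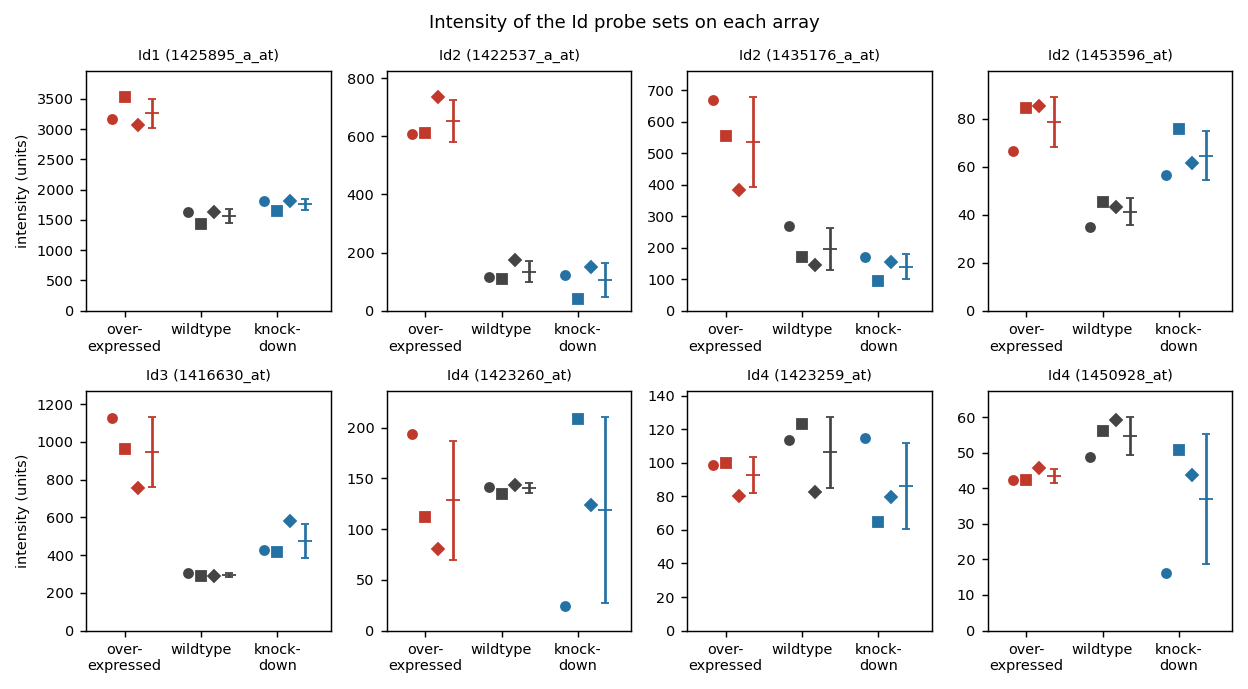
Intensity (linear units, axes from 0) of the 8 Id probe sets on each array, with circles for array A, squares for B, diamonds for C, and a bar for the mean ± SD of 3 arrays per group. The overexpressed arrays of Id1, Id3 and all 3 Id2 probe sets lie above all wildtype arrays, while those of Id4 do not.

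Follistatin, encoded by Fst, is a secreted protein that binds activins tightly and several BMPs more weakly, and it was several-fold brighter in overexpressed than in wildtype cells. It read 932, 1202 and 890 on overexpressed arrays A, B and C, 173, 203 and 198 on wildtype arrays, and 265, 324 and 259 on knockdown arrays. As for Id3, the groups formed 3 separate ranges in the order wildtype, knockdown, overexpressed. The overexpressed over wildtype difference was 2.30 ± 0.15, or 4.91-fold. Knockdown over wildtype was 0.52 ± 0.15, with a 95% interval of 0.19 to 0.86 before adjustment, and did not pass (adjusted p = 0.271).

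Of the ligands, Bmp7 ran the other way. Bmp7 acts in the kidney, the eye and sympathetic precursors. Its probe set 1418910_at read 297, 266 and 327 on overexpressed arrays, 1503, 956 and 684 on wildtype arrays and 664, 788 and 732 on knockdown arrays. On 1432410_a_at the values were 138, 143 and 143, then 1016, 782 and 500.2, then 339, 331 and 437. On 1435479_at they were 297, 353 and 437, then 1439, 790 and 574, then 767, 979 and 633. Overexpressed arrays were lowest on all 3 probe sets, without overlap with either other group. Wildtype array A was the brightest wildtype array each time and wildtype array C the dimmest, so the wildtype spread was wide, at 417, 258 and 450.0 (SD, n = 3).

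The overexpressed over wildtype differences of Bmp7 were -1.70 ± 0.23 on 1418910_at, -2.26 ± 0.22 on 1432410_a_at and -1.24 ± 0.29 on 1435479_at. Without wildtype array A they were -1.40, -2.03 and -0.88. Knockdown cells lay below wildtype without overlap on 1432410_a_at alone, at -0.98 ± 0.22 (95% interval -1.47 to -0.48, adjusted p = 0.17). That difference was -1.25 and passed without wildtype array C (adjusted p = 0.0311), and it was -0.75 without wildtype array A. On the other probe sets knockdown over wildtype was -0.45 ± 0.23 (adjusted p = 0.511) and -0.15 ± 0.29 (adjusted p = 0.896), and on 1435479_at the sign turned to 0.21 without wildtype array A. RNA was measured from whole cultures, so fewer cells of one kind and less RNA per cell cannot be told apart.

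Bmp4, a ligand close to Bmp2 and a driver of sympathetic fate in the embryo, was dim. It read 75.0, 84.5 and 78.3 on overexpressed arrays, 100.6, 96.8 and 99.0 on wildtype arrays and 97.4, 76.4 and 73.0 on knockdown arrays. The overexpressed values lay below the wildtype values without overlap, but the difference was -0.27 ± 0.21, close to its error in the fit. Knockdown over wildtype was -0.23 ± 0.21 (adjusted p = 0.737).

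Of the 3 induced inhibitors, Bambi and Smad7 were brighter in overexpressing cells without overlap. Bambi is a membrane pseudoreceptor that lacks the kinase part. It read 266, 219 and 329 on overexpressed arrays, 109, 38.8 and 103 on wildtype arrays and 109, 92.1 and 153 on knockdown arrays. Wildtype array B was low, and the overexpressed over wildtype difference of 1.61 ± 0.33 was 1.22 without it. Smad7, which blocks receptor Smads of both the BMP and the TGF-beta branches, read 514, 746 and 526, then 345, 331 and 357, then 444, 535 and 386 in the same order of groups. Its wildtype values lay below both other groups, and overexpressed and knockdown values overlapped. Overexpressed over wildtype was 0.74 ± 0.17 and knockdown over wildtype 0.37 ± 0.17 (95% interval 0.01 to 0.74, adjusted p = 0.447). Smad6, which acts mainly on the BMP branch, had means of 251 ± 33.0 in overexpressed, 181 ± 42.8 in wildtype and 161 ± 28.8 in knockdown cells, and overexpressed array C, at 219.8, lay just under wildtype array A, at 220.0.

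**Figure D2:**
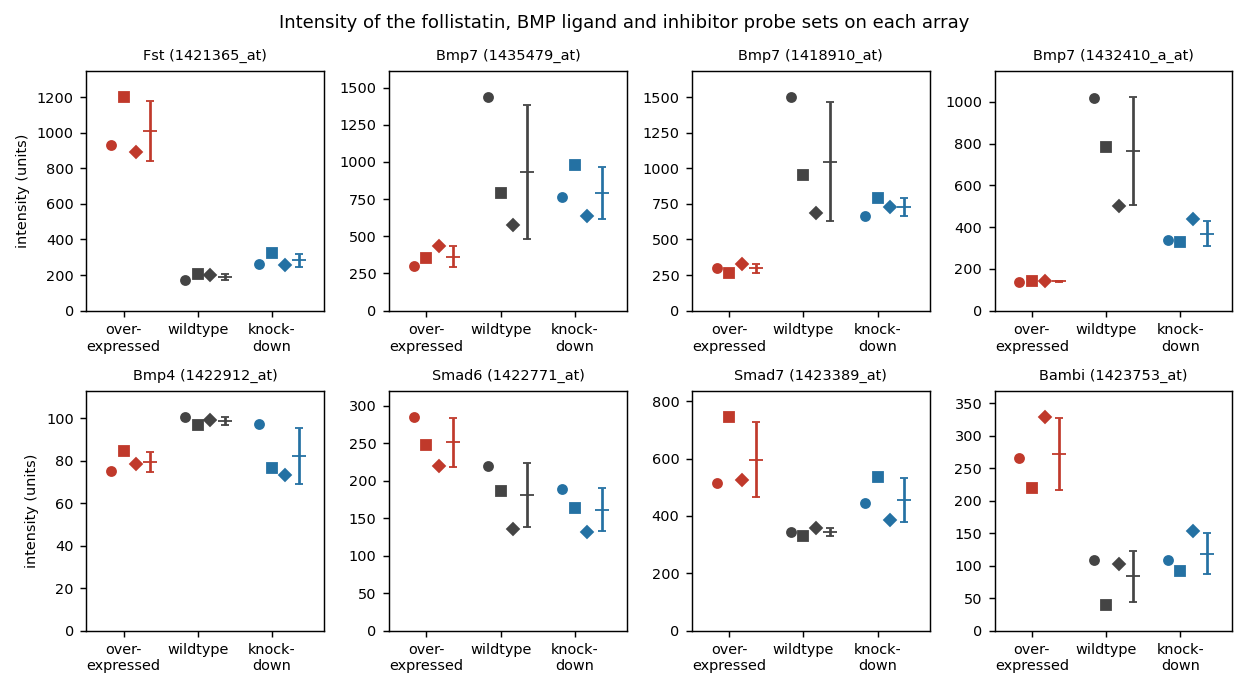
Intensity (linear units, axes from 0) of the follistatin, Bmp7, Bmp4, Smad6, Smad7 and Bambi probe sets on each array, with circles for array A, squares for B, diamonds for C, and a bar for the mean ± SD of 3 arrays per group. Fst is highest and Bmp7 lowest on the overexpressed arrays, and Bmp7 spreads widely over the wildtype arrays.

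Over all 16 probe sets, 9 differed between overexpressed and wildtype cells by at least 1 on the log2 scale: Id1, both brighter Id2 probe sets, Id3, Fst and Bambi higher, and the 3 of Bmp7 lower. Of all probe sets on the array 3.39% differed by as much. The groups did not overlap for 13 of the 16, 8 higher and 5 lower, against 27.8% of all probe sets, 13.3% higher and 14.4% lower. Because this contrast was known when the genes were proposed, nothing is read from these counts.

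Comparing the cells labelled knockdown with wildtype cells asks whether the same genes differed there. Tcof1 itself differed by -0.22, -0.40 and 0.06 on its 3 probe sets, with groups that did not overlap on the first, and none passed (adjusted p = 0.744, 0.51 and 0.934), so these probe sets leave the knockdown unchecked. In limma 0 of the 16 probe sets passed an adjusted p under 0.05, where 0.0133% of all probe sets did, 3 in number, and adjusted p ran from 0.17 to 0.896. At an unadjusted p under 0.05 there were 4, those of Id3, Fst and Smad7, higher, and Bmp7 on 1432410_a_at, lower. For all probe sets this share was 10.9%. Knockdown and wildtype arrays did not overlap for 6 of the 16, 5 higher (Id1, Id2 on 1453596_at, Id3, Fst and Smad7) and 1 lower (Bmp7 on 1432410_a_at), against 15.6% of all probe sets, 8.63% higher and 7.01% lower. The median difference over the 16 was -0.19, and over all probe sets 0.03. Id2, Id4 and Bmp7 enter the first of these medians with 3 probe sets each, and all those of Id4 and Bmp7 were below 0. It is therefore not a median over genes. This comparison shares its wildtype arrays with the one known when the genes were proposed. Its counts and directions are therefore not independent of that choice.

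Between overexpressed and knockdown cells, 8 of the 16 probe sets, of 5 genes, passed, 5 higher and 3 lower. Of all probe sets 7.57% passed, 3.43% higher and 4.14% lower. The groups did not overlap for 10 of the 16, 7 higher (12.9% of all) and 3 lower (15.2%), against 28.1% either way, and 11 had an unadjusted p under 0.05, against 22.5%. This comparison shares the overexpressed arrays with the one known when the genes were proposed, so it is not independent of that choice. Fst was higher by 1.77 ± 0.15 (adjusted p = 0.000223), Id1 by 0.89 ± 0.09 (adjusted p = 0.000534) and Id3 by 0.97 ± 0.17 (adjusted p = 0.00758). Id2 was higher by 2.60 ± 0.35 (adjusted p = 0.00248) and 1.82 ± 0.28 (adjusted p = 0.00444) on its brighter probe sets, and differed by 0.23 ± 0.23 (adjusted p = 0.609) on 1453596_at. Bmp7 was lower on all 3 probe sets, at -1.25 ± 0.23 (adjusted p = 0.00969), -1.28 ± 0.22 (adjusted p = 0.00846) and -1.09 ± 0.29 (adjusted p = 0.0443). Of the 8 calls, 7 held when each of the 9 arrays was left out in turn. The exception was Bmp7 on 1435479_at, lost without any 1 of the 3 overexpressed arrays, any 1 of the 3 knockdown arrays or wildtype array B (adjusted p = 0.0597 to 0.149).

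The other 8 probe sets did not pass between overexpressed and knockdown cells. Bambi came closest, at 1.11 ± 0.33 (95% interval 0.38 to 1.84, adjusted p = 0.0685), with overexpressed arrays above knockdown arrays without overlap. Smad6 differed by 0.60 ± 0.22 (adjusted p = 0.127), also without overlap, and Smad7 by 0.37 ± 0.17 (adjusted p = 0.221). Bmp4 had -0.04 ± 0.21 (95% interval -0.51 to 0.43, adjusted p = 0.947). The 3 Id4 probe sets differed by 0.11 to 0.34 (adjusted p = 0.694 to 0.846).

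**Figure D3:**
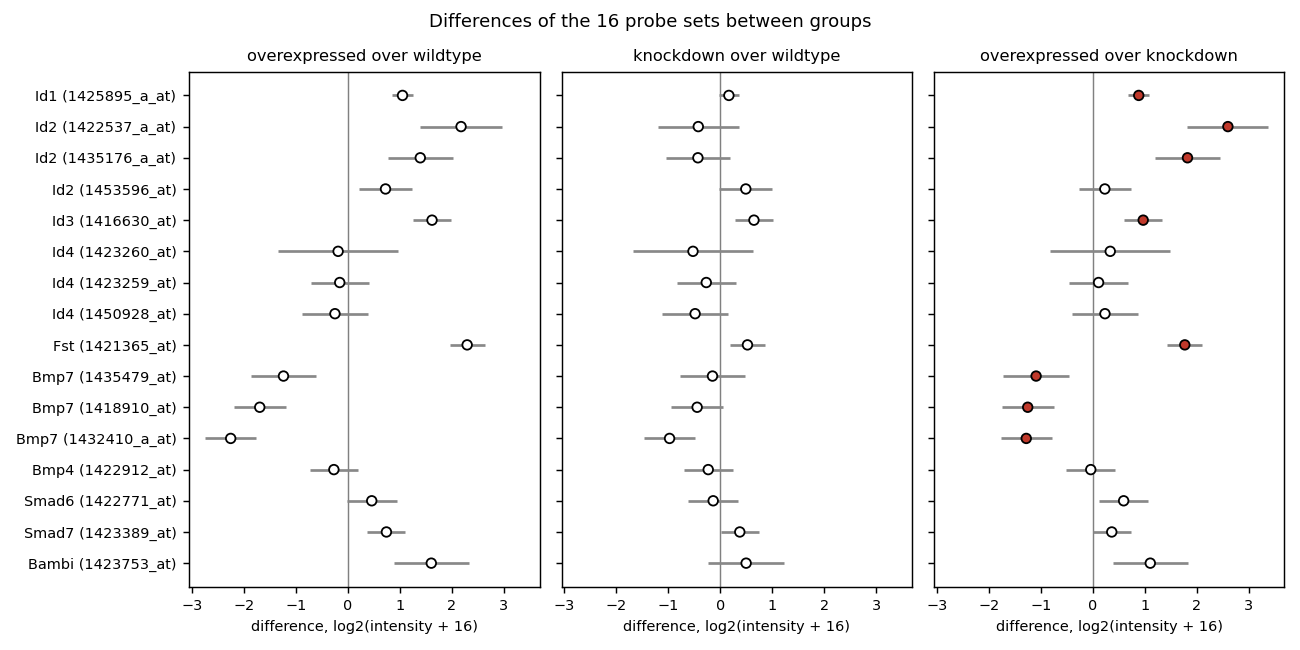
Difference on the log2(intensity + 16) scale for each of the 16 probe sets in each comparison, with bars for the unadjusted 95% interval from limma. Filled points passed an adjusted p under 0.05, which was not asked of overexpressed over wildtype. No point is filled in knockdown over wildtype, and 8 are filled in overexpressed over knockdown.

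The rest of the pathway was read from 7 lists of 138 genes outside the set, of which 119 had a probe set, each gene on its brightest one. The lists leave out the 10 members, which were chosen by their difference between overexpressed and wildtype cells. The lists were also drawn up with earlier results of these data known. The shares below therefore describe the listed genes alone and not the pathway as a whole. In overexpressed over wildtype cells 2 rose and 4 fell in limma, which is 5.04% of the genes, where 9.59% of all probe sets passed, 4.52% higher and 5.07% lower. With all arrays brought to a common median, 3 rose and 3 fell. With probe sets under the 40th percentile of brightness left out, 8 rose and 4 fell of 71, or 16.9%, where 19.9% of all probe sets kept passed, 9.69% higher and 10.2% lower. In knockdown over wildtype 0 of 119 passed, with 18 at an unadjusted p under 0.05 and a smallest adjusted p of 0.1. Between overexpressed and knockdown cells 4 were higher and 4 lower, or 6.72% against 7.57%. The medians over the 119 genes were 0.01, 0.04 and -0.07 in the 3 comparisons, beside -0.02, 0.03 and -0.05 over all probe sets. Tbx2, Acvrl1 and Fstl1 were the genes whose calls held without each array in turn, in both comparisons with overexpressed cells.

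Among 16 genes listed as ligands and activin subunits, which include the protease Bmp1, Inhba fell and 15 did not pass in overexpressed over wildtype cells. Inhba encodes the subunit of activin A, the main partner of follistatin, and was dim, at 27.3, 55.4 and 28.4 on overexpressed and 81.1, 128 and 94.9 on wildtype arrays. The difference was -1.17 ± 0.32 (adjusted p = 0.0442). This call was lost without any 1 of 7 of the 9 arrays, namely overexpressed A or C, knockdown B or C, or any wildtype array (adjusted p = 0.0531 to 0.155), and also without the mean-variance trend (0.0526) and with the array letter as a block (0.0599). Inhbb, the subunit of activin B, was lower in overexpressed than in knockdown cells, at -1.68 ± 0.36 (adjusted p = 0.0191), and the call was lost without overexpressed array A or B or knockdown array A or B (adjusted p = 0.0642 to 0.0745). Its knockdown arrays read 374, 431 and 197 against 131, 85.1 and 199 in wildtype, where it did not pass (1.18 ± 0.36, adjusted p = 0.278), and its other probe set had the opposite sign in both of these comparisons.

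Of 16 receptors, each on its brightest probe set, Acvr1 rose and Acvrl1 fell in overexpressed over wildtype cells. Bmpr1a did not pass on its brightest probe set (0.17 ± 0.18, adjusted p = 0.674), but 3 of its 5 probe sets passed as higher. Acvr1 encodes ALK2, a type I receptor for Bmp7. It read 296, 285 and 352 on overexpressed and 190, 206 and 167 on wildtype arrays, a difference of 0.68 ± 0.17 (adjusted p = 0.0306), and 1 more of its 3 probe sets passed in the same direction. Leaving out any overexpressed or wildtype array ended the call on the brightest probe set (adjusted p = 0.0612 to 0.11). Acvrl1 encodes ALK1, a type I receptor known mainly from endothelium. It read 199.9, 216 and 194 on overexpressed, 448, 433 and 391 on wildtype and 452, 448 and 537 on knockdown arrays, so that the overexpressed arrays stood apart from 2 groups that overlapped. Its differences were -1.0 ± 0.13 from wildtype (adjusted p = 0.00143) and -1.17 ± 0.13 from knockdown cells (adjusted p = 0.000873). Tgfbr1, the type I receptor for TGF-beta, was higher in overexpressed than in knockdown cells by 0.48 ± 0.13 (adjusted p = 0.0415), a call lost without any overexpressed or knockdown array or wildtype array B (adjusted p = 0.0506 to 0.13), without the trend (0.107), with quantile normalization (0.054) and with the block (0.0663).

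None of 12 signal transducers, which included all receptor Smads and Smad4, passed in any comparison in limma. At an unadjusted p under 0.05 there was 1 in overexpressed over wildtype, and 3 in each of the others. Among 15 genes listed as extracellular antagonists Fstl1 fell. The list was broad and also held Tll1, a protease, and Crim1, a membrane protein. Fstl1, a secreted glycoprotein related to follistatin, read 772, 626 and 916 on overexpressed, 1988, 1571 and 1686 on wildtype and 1260, 1554 and 1614 on knockdown arrays. It was lower in overexpressed cells by -1.17 ± 0.15 than in wildtype (adjusted p = 0.00132) and by -0.93 ± 0.15 than in knockdown cells (adjusted p = 0.00569), and its other probe set passed in both. Fst and Fstl1 lay on opposite sides of wildtype in overexpressing cells.

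Of 12 intracellular inhibitors 0 passed on the brightest probe set in overexpressed over wildtype cells in limma, with 5 at an unadjusted p under 0.05. Ppm1a came closest, at -0.39 ± 0.11 (adjusted p = 0.0519). Of its other probe sets 1 passed as lower and 2 had the opposite sign. Ski and Tgif1, corepressors that bind Smads, were higher in overexpressed than in knockdown cells by 1.05 ± 0.27 (adjusted p = 0.0423) and 0.61 ± 0.16 (adjusted p = 0.0396). The Ski call was lost without any overexpressed array, knockdown array A or C, or wildtype array B (adjusted p = 0.0573 to 0.125), and the Tgif1 call without any overexpressed or knockdown array or wildtype array B (adjusted p = 0.0522 to 0.148). Both were lost without the trend (adjusted p = 0.0805 and 0.0661).

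Of 22 other genes known as BMP targets, Tbx2 rose and 0 fell in overexpressed over wildtype cells. Tbx2, a T-box repressor, read 849, 970 and 956 on overexpressed, 554, 486 and 423 on wildtype and 235, 288 and 324 on knockdown arrays. These were 3 separate ranges in the order of the Tcof1 labels, unlike Fst and Id3, for which wildtype was lowest. Overexpressed over wildtype was 0.91 ± 0.14 (adjusted p = 0.00355) and overexpressed over knockdown 1.67 ± 0.14 (adjusted p = 0.000223), while knockdown over wildtype, at -0.76 ± 0.14, had the smallest p of the 119 genes and did not pass (adjusted p = 0.1). Hey1, a bHLH repressor of the Notch and BMP pathways, was lower in overexpressed than in knockdown cells by -0.69 ± 0.14 (adjusted p = 0.0159), a call lost without overexpressed array A or C or knockdown array B (adjusted p = 0.0515 to 0.0562).

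Of 26 partners and targets of Id proteins, 1 fell in overexpressed over wildtype cells, and it is no bHLH factor. Cdkn2a, which encodes inhibitors of cell cycle kinases and of Mdm2 and is repressed by Id1 in other cells, read 199, 280 and 262 on overexpressed, 447, 497 and 387 on wildtype and 271, 171 and 314 on knockdown arrays. It differed by -0.81 ± 0.22 (adjusted p = 0.0418), and by as much in knockdown over wildtype without passing (adjusted p = 0.237). The first call was lost without any overexpressed array, wildtype array A or B or knockdown array A (adjusted p = 0.0568 to 0.148). It was also lost with a common median, quantile normalization, the block and no trend (adjusted p = 0.0622 to 0.0753). The E proteins Tcf3, Tcf4 and Tcf12, with which Id proteins pair, did not pass in any comparison.

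**Figure D4:**
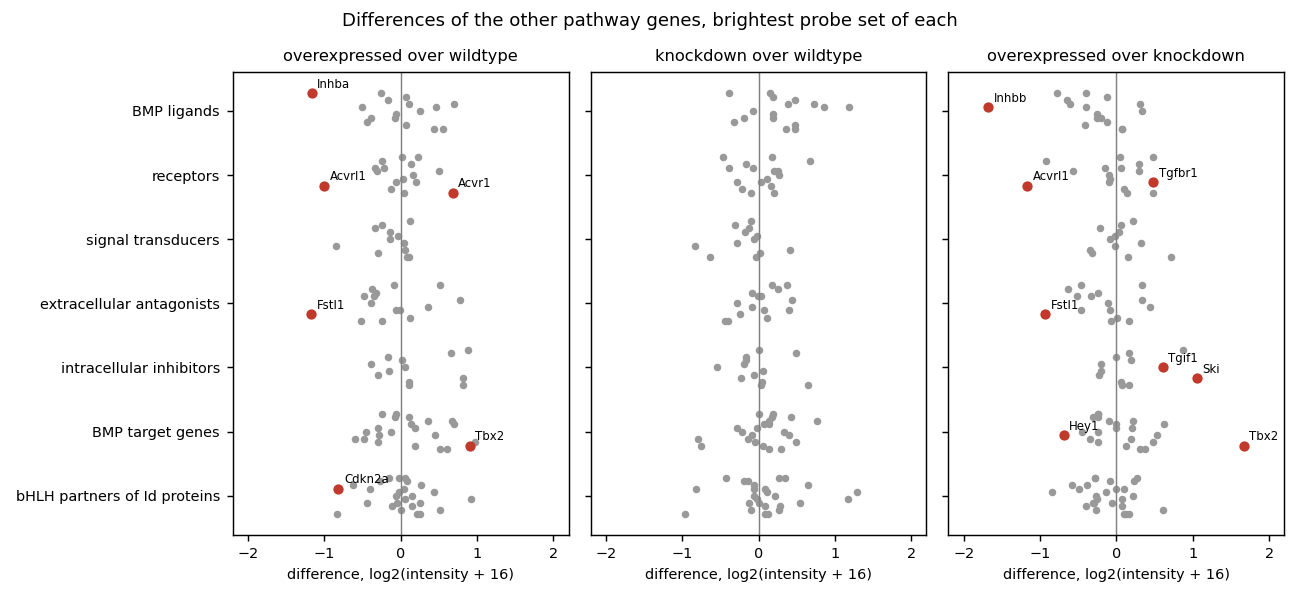
Difference on the log2(intensity + 16) scale of 119 other pathway genes, 1 point per gene by list, with the vertical position within a list arbitrary. The list labelled bHLH partners of Id proteins also holds genes that are no bHLH factors, Cdkn2a among them. Red points with names passed an adjusted p under 0.05 in limma: 6 in overexpressed over wildtype, 0 in knockdown over wildtype and 8 in overexpressed over knockdown.

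**Figure D5:**
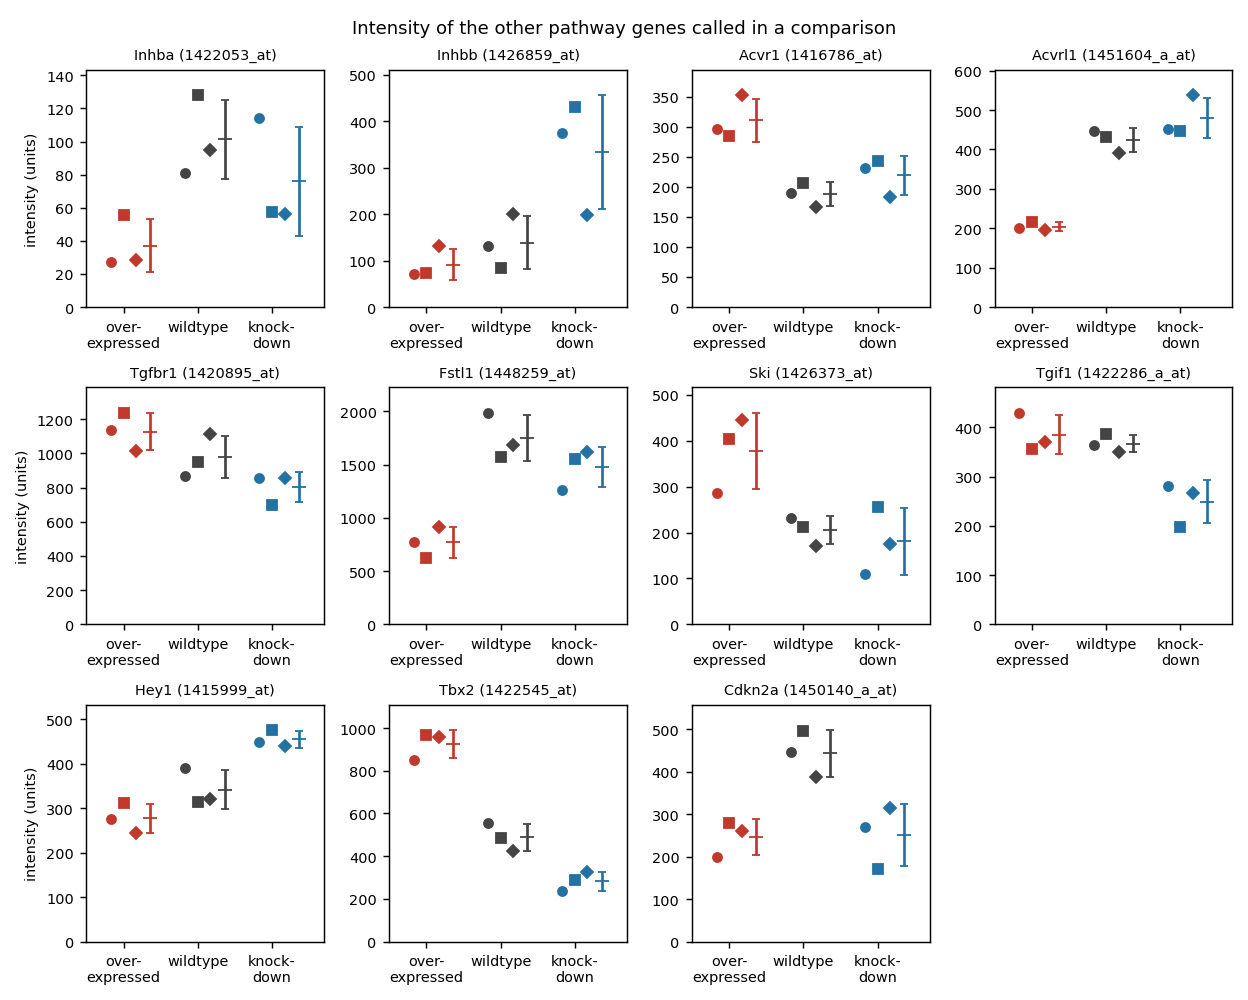
Intensity (linear units, axes from 0) on each array of the 11 other pathway genes that passed in a comparison, with circles for array A, squares for B, diamonds for C, and a bar for the mean ± SD of 3 arrays per group. Tbx2 forms 3 separate ranges, and Acvrl1 and Fstl1 are low on the overexpressed arrays alone.

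The genes whose pattern over the 9 arrays was most like a member were named by Pearson's r of log2 values among 10430 probe sets brighter than the median. For Id1 these were Eif2s2, Ncbp3, Shmt1, Rpa2 and Lsm2 (r = 0.976 to 0.992). For Fst they were Msh6, Shmt1, Mcm10, Exosc2 and Eif2s2 (r = 0.972 to 0.988), so that Shmt1 and Eif2s2 were on both lists. For Bmp7 on its brightest probe set, 1435479_at, they were Efna3, Atp6v0d1, Retreg1, Morn4 and Gga2 (r = 0.968 to 0.993). The 9 arrays fall into 3 groups and share them, so r mostly follows the group means, and the largest of many values is high by selection.

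Tcof1 was brighter on all overexpressed than on all wildtype arrays by its 3 probe sets, of which 1 passed (adjusted p = 0.0241, 0.0786 and 0.187). That call was lost without overexpressed array A or C or wildtype array A or B (adjusted p = 0.0511 to 0.0973). Between overexpressed and knockdown cells 2 of the 3 passed (adjusted p = 0.0116 and 0.0137), and each of these calls was lost without 1 array, overexpressed A or overexpressed B (adjusted p = 0.0508 and 0.05001). The noradrenergic genes Th, Dbh and Phox2a, at means of 1531 to 4163, were above the median probe set, and 12 of 13 measured sympathoadrenal markers were. Ddc, an enzyme of catecholamine synthesis, was the exception, at means of 21.7 to 61.4. Of these 13, Dbh and Isl1 rose in overexpressed over wildtype cells by 0.60 and 0.99 and Chga and Ache fell by 0.75 and 1.40 (adjusted p = 0.000435 to 0.0137). Ratios of 3′ to 5′ control probe sets, which rise with degraded RNA, were 0.733 to 0.813 for Gapdh and 0.911 to 1.03 for Actb, with overlapping groups. Of 9 fibroblast markers 1, Pdgfrb, and of 6 Schwann cell and glia markers 1, Erbb3, were lower in overexpressed cells in both comparisons, and 8 and 5 did not pass. The summed glia markers were 596 to 761 in overexpressed, 871 to 1023 in wildtype and 782 to 949 in knockdown arrays. The fibroblast sums were 478 to 634, 565 to 807 and 734 to 870.3 in that order, and those of 6 blood markers, of which 1 was lower in overexpressed than in knockdown cells, 363 to 489, 452 to 508 and 355 to 593. No marker was at 0 on any array. Above the median probe set were 1 of the 9 fibroblast markers (Col1a2, at means of 183 to 252), 2 of the 6 glia markers (Erbb3, at 258 to 431, and Sox10, at 184 to 201) and 0 of the 6 blood markers. Pdgfrb differed by -2.01 ± 0.33 between overexpressed and wildtype cells (adjusted p = 0.00405) and Erbb3 by -0.71 ± 0.12 (adjusted p = 0.00515). The part of other cells in the results above was not tested.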

How the data were processed

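The authors deposited 1 linear intensity per probe set and array from a 1-colour array with Affymetrix names. The sources used here name no software, background correction or detection call. Leaving out the lowest and highest 2% of values, the array means were 499.4 to 500.0, a common level, and array medians were 164.1 to 186. Their ratio of 1.13 was under the limit of 1.2, so no further scaling was done. Precision is limited by having 3 arrays a group.

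Of 22690 probe sets 64 controls were left out. Of the rest 20380 had 1 gene symbol, 691 several and 1555 none. limma 3.58.1 in R 4.3.3 was fitted to log2(intensity + 16) of 9 arrays with a mean per group and a mean-variance trend, with Benjamini-Hochberg adjustment over 22626 probe sets and calls at an adjusted p under 0.05. The fit was tested on simulated data.

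Members and lists were chosen with earlier results of these data known. Named were all members, pathway genes that passed (up to 4 per list), Tcof1 and the 5 probe sets most like Id1, Fst and Bmp7. Alternatives were other pseudocounts (1 and 64), a filter at the 40th percentile, quantile and median scaling, no trend, array weights, the letter as a block, each array left out and, for lists, the mean of a gene's probe sets.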

Additional observations from a re-analysis of the deposited data

How the results depend on the processing

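In knockdown over wildtype, 0 of the 16 probe sets passed under every setting run except without wildtype array C, where 1 did (0 to 1 over the 9 arrays left out in turn). In overexpressed over knockdown the 8 calls were 7 to 9 under all settings. The number that differed by at least 1 between overexpressed and wildtype cells was 8 to 9. Nothing is read from that count, since the genes were proposed with that comparison known. Bambi gained a call in overexpressed over knockdown with the brightness filter (adjusted p = 0.0296), a pseudocount of 64 (0.0466), the replicate block (0.0315) and without wildtype array B (0.0284). With the letter as a replicate block the 8 calls stayed 8 in number, with Bambi in and Bmp7 on 1435479_at out. The latter was also lost with a common median (0.0555), without the trend (0.0989) and with a pseudocount of 64 (0.0568). Whether the letters mark shared cultures is not known. Deviations correlated above 0.1 in 5 of 9 same-letter pairs, all 3 of B, 2 of A and 0 of C, and in 3 of 18 other pairs. The letters were not used as pairs, which would have needed every pair above 0.1. Of the other pathway genes, 12 (8 higher, 4 lower) passed in overexpressed over wildtype with the filter, of 71 left, against 6 of 119. With the mean of a gene's probe sets 9 passed there (5 higher, 4 lower), and with array weights 9 (4 higher, 5 lower). In overexpressed over knockdown 5 passed without the trend, against 8, and 10 with the gene mean or with array weights. With arrays left out the counts ran from 3 to 6 in overexpressed over wildtype and from 3 to 9 in overexpressed over knockdown. The block ended the calls of Inhba, Tgfbr1 and Cdkn2a. In knockdown over wildtype 0 of them passed under every setting run. Without a detection call, dim probe sets such as those of Id4 and Bmp4 cannot be told from background.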
